A study of Mus musculus with 8 samples.

Results

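Bone marrow cells of mice with floxed Thoc5 were compared with those of Cre control mice at day 0 of macrophage differentiation, before any tamoxifen was given. The study set day 3 against day 0 RNA on 8 dual-colour Agilent arrays, in 2 biological experiments. Here the day 0 channel of every array was used, green in replicate 1 and red in replicate 2, which is 8 of 16 channels. The 2 arrays that carried the same day 0 RNA were averaged, which gave 4 of the series' 12 RNA samples: 1 control and 1 flox sample in each replicate. The control mice carried the ERT2 Cre transgene, and the flox mice carried it together with Thoc5 (flox/flox). Day 0 cells of both genotypes were labelled as untreated bone marrow macrophages on the same C57BL/6 x B6:129 Ola background, and cytoplasmic RNA was extracted. The promoter that drives the Cre, the number, age and sex of the mice, and whether the genotypes were littermates are not given in the sources used here.

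ERT2 Cre is a Cre recombinase fused to an oestrogen receptor domain, which keeps it out of the nucleus until tamoxifen binds. Thoc5 is a subunit of the THO complex, which is part of TREX, the machinery that couples transcription to export of mRNA from the nucleus. Bone marrow holds stem and progenitor cells, developing granulocytes and monocytes, erythroid and lymphoid cells, megakaryocytes and stroma, and CSF-1 drives its progenitors towards macrophages. The day 0 comparison sets the genotypes against each other before the treatment that is meant to delete Thoc5.

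The signal of Thoc5 did not differ detectably between the genotypes at day 0. On the normalised log2 intensity scale the Thoc5 probe (mm9, chromosome 11, 4828807 to 4828866) read 12.64 and 12.75 in control replicates 1 and 2 and 12.70 and 12.57 in the flox replicates. The values overlapped, and the difference was -0.06 ± 0.14 (SE, n = 2 samples per genotype, 95% interval -0.39 to 0.27, limma adjusted p = 0.999). Genes of the other TREX and mRNA export factors were measured for 26 of 26 list members, and limma called 0 of these, with 0 at an unadjusted p under 0.05. Their median difference was 0.08, and the extremes were -0.23 and 0.19. Thoc2, a further THO subunit, had log2 intensities of 11.25 and 11.23 in controls and 11.21 and 10.86 in flox cells.

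Both genotypes of replicate 2 and the control of replicate 1 expressed Y-linked genes, and the flox sample of replicate 1 did not. Ddx3y, a Y-linked RNA helicase, had log2 intensities of 12.91 and 12.47 in the controls, 6.16 in flox replicate 1 and 12.24 in flox replicate 2. Xist, the RNA that silences an X chromosome in female cells, was well above background in flox replicate 1 alone, at 9.35 on the brighter of its 2 probes against 6.02 to 6.16 in the other samples. The genotypes of replicate 1 therefore differed in sex-linked RNA and those of replicate 2 did not. In a day 0 channel 55% to 58.4% of probe spots were well above background, with 0 saturated. The 2 arrays of an RNA correlated at r = 0.9987 to 0.9992 across genes, and the genotypes within a replicate at 0.9914 to 0.9943. The median gap between 2 arrays of the same RNA was 0.048 to 0.077 on the log2 scale, against a median absolute genotype difference of 0.15 in replicate 1 and 0.13 in replicate 2. Control samples lay on the first positions of each slide and flox samples on the later ones, so position and genotype cannot be told apart.

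The label of bone marrow macrophages was set against marker genes. Of the macrophage markers on the array, 22 of 24 had a probe well above background in all 8 channels, as had 15 of 15 monocyte and 24 of 26 late neutrophil granule markers. Of 30 erythroid genes on the array 14 were well above background in all 8 channels and 12, Alas2 and Klf1 among them, in none. Of 26 B lineage genes 14 were in all 8 channels and 7, including Cd79a, Pax5 and Igkc, in none. The samples therefore held RNA of macrophage, monocyte and granulocyte genes together with part of the erythroid and B lineage markers. In such bulk RNA, fewer cells of a type and less RNA per cell cannot be told apart.

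Of 16837 genes tested, 83 (0.493%) were called different between flox and control cells at a limma adjusted p under 0.05, 60 of them higher and 23 lower in flox cells. The 83 genes all differed by at least 2-fold and had the same sign in both replicates. The test held a term for the replicate and had 1 residual degree of freedom. A limma fit without that term called 18. At an unadjusted p under 0.05, 1349 genes (8.01%) passed, 823 (4.89%) higher and 526 (3.12%) lower. Over all genes the differences in the 2 replicates correlated only weakly, at r = 0.34 and Spearman's rho = 0.06, and 49.8% of genes had the same sign in both (genes are not independent replicates). These p-values rest on 4 samples of 2 experiments. The variance behind each comes mostly from a spread pooled over all genes (5.02 prior against 1 residual degree of freedom), not from that gene's own samples.

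The count depended on single arrays. It was 42 without the array of flox replicate 1 that carried untreated day 3 RNA and 283 without the array of the same sample that carried tamoxifen-treated day 3 RNA. It was 149 without the array of control replicate 1 with tamoxifen, 142 and 190 without the arrays of control replicate 2 without and with tamoxifen, and 134 without the array of flox replicate 2 without tamoxifen. All 83 genes were again called in each of these cases but the first, where 42 were. Some of the 83 were also lost in the remaining cases. Without the array of control replicate 1 without tamoxifen 77 were called, 76 of them among the 83. Without the array of flox replicate 2 with tamoxifen 75 were called, 74 of them among the 83. In a fit of all 12 RNA samples 204 genes were called, 60 without flox replicate 1, 51 of them among the 83, 103 without control replicate 1 and 134 without flox replicate 2.

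**Figure D1:**
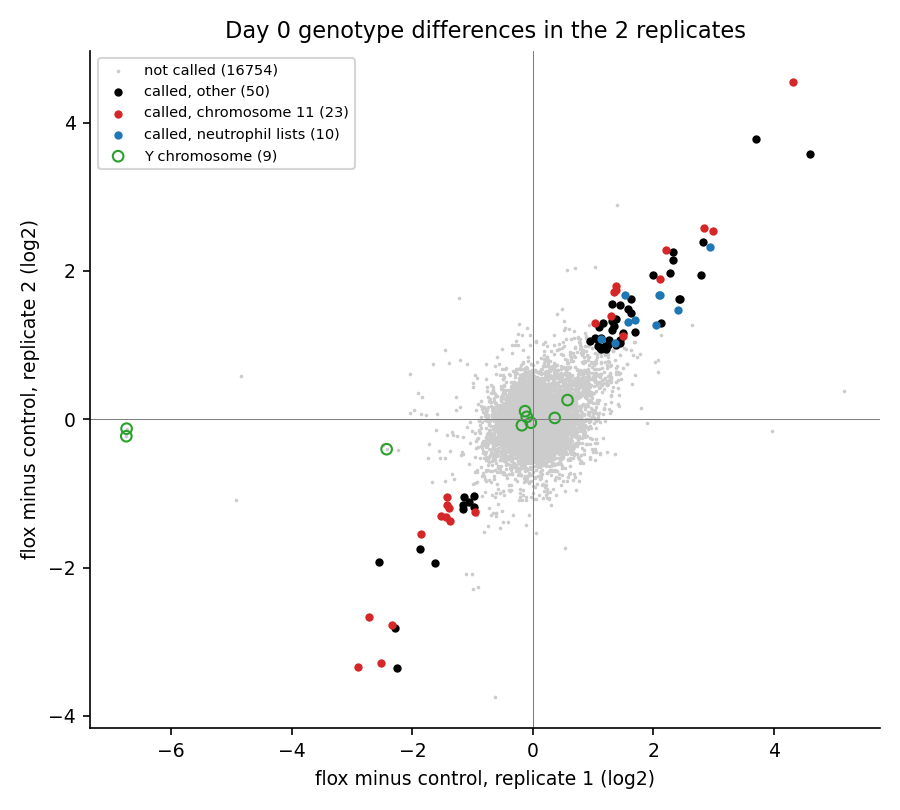
Flox minus control differences at day 0 (log2) in replicate 1 on the horizontal and replicate 2 on the vertical axis, with a point for each of 16837 genes. The 83 called genes lie in the upper right and lower left, while 3 of the 9 Y-linked genes (green circles) lie far to the left, near 0 in replicate 2.

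The genes that stood highest in flox cells were a transcript of chromosome 11 that the array names only by its ID, and the neighbouring interferon-inducible genes Ifi44 and Ifi44l. ENSMUST00000070897, at 120047925 to 120047984 of chromosome 11, read 10.85 and 11.00 in controls and 15.18 and 15.55 in flox cells. It rose 21.7-fold (log2 difference 4.44 ± 0.14, limma adjusted p = 0.000888). Ifi44 on chromosome 3 read 7.24 and 8.12 in controls against 11.82 and 11.69 in flox cells, a 16.9-fold difference (4.08 ± 0.24, limma adjusted p = 0.00431). Ifi44l was not well above background on any control array, at 6.24 and 6.32, and read 9.95 and 10.10 in flox cells. It was at least 8.77-fold higher in flox cells, where such a bound sets the flox mean against the lowest signal that counted as above background (limma adjusted p = 0.000888). Its probe passed the filter on dim spots through the flox arrays alone.

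Lower down the same order, BC018473 rose by 2.76 ± 0.16 on the log2 scale, 2.98 in replicate 1 and 2.54 in replicate 2. Nlrp1b, an inflammasome sensor, rose by 2.71 ± 0.14 on the probe that represents it, 2.84 and 2.58 in the replicates. With the mean of its kept probes, which point in opposite directions, Nlrp1b differed by 0.80 and was not called. Stfa1, a stefin that inhibits cysteine proteases, read 8.86 and 9.60 in controls and 11.80 and 11.93 in flox cells. Clec4f, a C-type lectin known from Kupffer cells, was not well above background in controls and was at least 4.19-fold higher in flox cells, and Fn3krp, a ketosamine kinase, at least 3.87-fold. Mid1, an X-linked ubiquitin ligase, read 8.83 and 7.90 in controls and 11.15 and 10.15 in flox cells. Its difference was alike in the replicates, 2.32 and 2.25, although only replicate 1 differed in sex-linked RNA. LOC631406, LOC100047788 and ENSMUST00000103418 rose by 2.37, 2.24 and 2.12, with limma adjusted p between 0.00431 and 0.0176. In replicates 1 and 2 these were 2.79 and 1.95 for LOC631406, 2.33 and 2.15 for LOC100047788, and 2.28 and 1.97 for ENSMUST00000103418. LOC100047788 and ENSMUST00000103418 lie beside each other on chromosome 12. Next to them lies the third of the 3 called genes of that chromosome, ENSMUST00000103416. It rose by 1.63, 1.62 and 1.63 in the replicates. Its probe passed the filter on dim spots through the flox arrays alone.

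Among the 23 genes lower in flox cells, 2610507I01Rik fell furthest, from 10.66 and 10.97 in controls to 7.76 and 7.62 (log2 difference -3.13 ± 0.16, limma adjusted p = 0.00365). Slfn8, of the Schlafen family that restrains cell growth and viral replication, read 10.56 and 11.25 in controls and 8.04 and 7.96 in flox cells, a 7.49-fold fall. Sik1, a salt-inducible kinase, read 10.33 and 11.57 in controls and 8.04 and 8.75 in flox cells. The groups did not overlap for any of these genes, which were chosen by their calls, so this is a description. 6720422M22Rik differed by -2.26 in replicate 1 and -3.35 in replicate 2, Tnfsf13os by -2.34 and -2.77, and Gm3516 by -2.56 and -1.93. Guca1a, an activator of photoreceptor guanylate cyclase, fell by 1.81, 9130008F23Rik by 1.78, the transporter gene Abca9 by 1.38 and Wfdc18 by 1.37. Both replicates were lower for each of these 4 genes. The probes of 6720422M22Rik, Tnfsf13os and 9130008F23Rik passed the filter on dim spots through the control arrays alone, so their calls are a description.

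Apart from the sex-linked genes, the gene list with the median furthest from 0 was that of neutrophil primary granules, the first granules formed in promyelocytes, which store serine proteases and myeloperoxidase. Of 11 members, 7 rose in flox cells and 0 fell, where 0.356% of all genes were called higher. The median difference of the list was 1.52, 1.53 in replicate 1 and 1.27 in replicate 2, against -0.01 over all genes. Mpo, which encodes myeloperoxidase, read 13.87 and 14.31 in controls and 16.27 and 15.78 in flox cells (1.94 ± 0.23, 3.83-fold, limma adjusted p = 0.039), and its further probe differed by 2.53. Prtn3, proteinase 3, read 12.17 and 12.48 against 14.28 and 14.16 (1.90 ± 0.16). Ctsg, cathepsin G, read 13.42 and 14.11 against 15.46 and 15.38 (1.66 ± 0.20). Both flox samples lay above both controls for each of these protease and peroxidase genes. They were chosen with their values known, and the share of all genes separated in this way was not counted, so this is a description.

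The other called members were of different kinds. Ms4a3, a membrane protein gene of granulocyte and monocyte progenitors, rose by 1.88 ± 0.15, 2.09 and 1.68 in replicates 1 and 2. Fcnb, a lectin of the complement system, rose by 1.60 ± 0.13, 1.53 and 1.67 in the replicates. Gfi1, a transcription factor needed for neutrophil development, rose by 1.52 ± 0.15, 1.70 and 1.34, and Serpinb1a, an inhibitor of neutrophil proteases, by 1.20 ± 0.14, 1.37 and 1.03. Cebpe, a transcription factor of later granulocytes, was not called at 1.01 ± 0.16 (limma adjusted p = 0.0774). Elane, neutrophil elastase, differed the other way in both replicates, by -0.52 and -0.52, and was not called (limma adjusted p = 0.218). It read 15.53 and 15.82 in controls and 15.00 and 15.30 in flox cells, so these ranges did not overlap either, again a description. Without the array of flox replicate 1 that carried untreated day 3 RNA, 4 of the 11 genes were called, and in the fit of all 12 RNA samples 8 were, or 4 without flox replicate 1. Without the replicate term 2 were called.

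**Figure D2:**
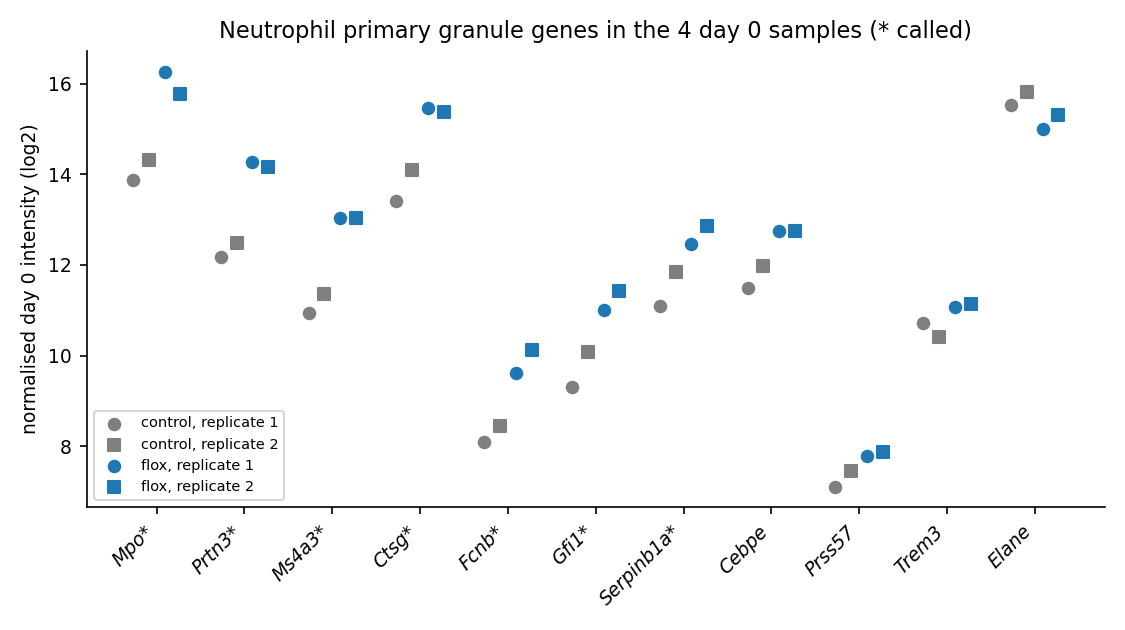
Normalised day 0 log2 intensity of the 11 neutrophil primary granule genes in the 4 samples, controls in grey and flox in blue, replicate 1 as circles and replicate 2 as squares. Mpo, Prtn3, Ctsg and 4 more genes (asterisks) were called higher in flox cells, and Elane alone has both flox points below both control points.

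The upstream sequences of Mpo, Prtn3, Ctsg and Elane are shown because these genes encode stored proteins of the same granule, while 3 of them rose and Elane did not. Each is the run of 250 bases before the RefSeq transcription start, 5′ to 3′ on the gene's strand, on GRCm38.p6. They are chr11:87793534-87793783 on the plus strand for Mpo, chr10:79879417-79879666 on the plus strand for Prtn3, chr14:56102575-56102824 on the minus strand for Ctsg and chr10:79886062-79886311 on the plus strand for Elane. Capitals mark matches on either strand to the core GAGGAA bound by PU.1 and to the MYB core TAACNG.
Mpo: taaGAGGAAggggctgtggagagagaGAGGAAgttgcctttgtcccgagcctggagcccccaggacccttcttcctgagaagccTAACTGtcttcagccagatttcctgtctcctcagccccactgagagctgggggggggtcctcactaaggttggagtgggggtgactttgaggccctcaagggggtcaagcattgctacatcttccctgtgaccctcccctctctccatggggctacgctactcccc
Prtn3: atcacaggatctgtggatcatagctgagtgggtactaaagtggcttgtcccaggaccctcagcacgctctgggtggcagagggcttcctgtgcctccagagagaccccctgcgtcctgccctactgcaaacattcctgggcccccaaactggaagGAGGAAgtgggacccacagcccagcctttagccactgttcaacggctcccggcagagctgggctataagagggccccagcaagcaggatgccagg
Ctsg: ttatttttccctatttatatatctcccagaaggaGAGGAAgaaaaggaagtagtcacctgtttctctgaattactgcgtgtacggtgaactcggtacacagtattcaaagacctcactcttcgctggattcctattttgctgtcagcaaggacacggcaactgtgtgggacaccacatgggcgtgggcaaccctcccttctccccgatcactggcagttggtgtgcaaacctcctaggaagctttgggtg
Elane: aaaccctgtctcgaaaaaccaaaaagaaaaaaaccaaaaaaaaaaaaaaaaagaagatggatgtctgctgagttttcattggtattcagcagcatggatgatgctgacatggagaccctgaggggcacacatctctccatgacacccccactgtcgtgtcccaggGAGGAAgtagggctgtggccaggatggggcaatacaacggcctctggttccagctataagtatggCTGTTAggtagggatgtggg

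A GAGGAA match was present in all 4 windows, 2 times in Mpo, and 23.1% of 27025 RefSeq promoter windows of that length held such a match. A TAACNG match was present in Mpo and, on the opposite strand, in Elane, against 19.8% of all windows. The C/EBP pattern TTNCNNAA matched in 0 of the 4, against 36.9% of all windows. Of the 11 list genes, 7 were in the promoter table, and of these 3 (42.9%) held the C/EBP pattern, 4 (57.1%) GAGGAA and 2 (28.6%) TAACNG, so the GAGGAA and TAACNG matches were all among the 4 genes shown. The 3 genes that rose and Elane thus shared the GAGGAA letters, and these matches are letters only.

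The later neutrophil granules form as neutrophils mature and hold lactoferrin and antimicrobial peptides. The late granule list also held other neutrophil genes, such as Stfa1 and the receptor genes Csf3r and Cxcr2. Of its 25 measured genes 3 rose and 0 fell, where 0.356% of all genes were called higher and 0.137% lower. The median difference was 0.68, 0.87 in replicate 1 and 0.50 in replicate 2. The called members were Stfa1, Camp and Ngp. Camp, the cathelicidin precursor, read 14.55 and 14.87 in controls and 16.12 and 16.18 in flox cells (1.44 ± 0.14), and its further probe differed by 1.51. Ngp, a neutrophil granule protein, rose by 1.11 ± 0.13, 1.13 and 1.09 in replicates 1 and 2. Pglyrp1, a peptidoglycan recognition protein of neutrophil granules, read 9.82 and 9.80 in controls and 11.15 and 10.73 in flox cells and was not called (1.13 ± 0.15, limma adjusted p = 0.0532). At an unadjusted p under 0.05, 19 genes of the list were higher, against 4.89% of all genes, and 1 was lower, against 3.12%.

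Markers of several other cell types were also higher in flox cells without passing the test. Of 18 megakaryocyte and platelet genes 17 were higher in both replicates, against 21.0% of all genes. Their median difference was 0.68, 0.98 in replicate 1 and 0.40 in replicate 2. Limma called 0 of them, and 14 were higher at an unadjusted p under 0.05, against 4.89% of all genes. Gp9, a subunit of the platelet receptor for von Willebrand factor, read 10.22 and 10.74 in controls and 11.63 and 11.37 in flox cells. Of 19 stem and progenitor genes 0 were called and 12 passed an unadjusted p under 0.05, all higher, against 4.89% of all genes, and their median difference was 0.77 in replicate 1 and 0.23 in replicate 2. Myb, a transcription factor of progenitors, differed by 1.56 and 0.74, Kit, the stem cell factor receptor, by 1.28 and 0.55, and Cd34 by 0.68 and 0.85 in replicates 1 and 2.

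Emcn, an endothelial surface sialomucin, rose by 1.13 ± 0.14, 1.25 in replicate 1 and 1.00 in replicate 2. It was the 1 called gene of 17 stromal and endothelial genes, where 0.356% of all genes were called higher. Of these 17 genes 14 were higher at an unadjusted p under 0.05, against 4.89% of all genes. Their median difference was 0.67, 0.69 in replicate 1 and 0.58 in replicate 2, and Col1a2, a chain of type I collagen, read 12.19 and 12.36 in controls and 13.31 and 13.12 in flox cells. The summed stromal signal was 14.86 and 15.26 in controls and 15.83 in each flox sample, on the log2 scale. Bglap and Adipoq, markers of osteoblasts and fat cells, were not well above background in any channel. Of 14 eosinophil, basophil and mast cell genes 1 rose, the basophil protease gene Mcpt8, by 1.49 ± 0.13, 1.45 and 1.54 in replicates 1 and 2. At an unadjusted p under 0.05, 7 of these 14 genes were higher and 0 lower. The summed signal of the primary granule genes was 16.42 and 16.81 in controls and 17.63 and 17.51 in flox cells, and that of the megakaryocyte genes 18.02 and 17.71 against 18.41 and 18.13. The part of these other cell types in the neutrophil result was not tested.

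Monocyte and macrophage genes lay near the median of all genes. Of 15 monocyte and 23 macrophage genes 0 were called, with median differences of 0.05 and 0.10. Among them Fn1, fibronectin, differed by 1.02 and 0.53 in replicates 1 and 2 and Vcam1, an adhesion molecule, by 1.24 and 0.70, and neither passed (limma adjusted p = 0.157 and 0.101). The summed monocyte signal was 19.27 and 19.32 in controls and 19.29 and 19.27 in flox cells. At an unadjusted p under 0.05, 3 monocyte and 2 macrophage genes were higher. Of 16 B lineage genes limma called 0, and 8 passed an unadjusted p under 0.05, all higher in flox cells, against 4.89% of all genes. Their median difference was 0.34, 0.27 in replicate 1 and 0.40 in replicate 2. Jchain, a member of this list, differed by 0.93 and 1.27 in the replicates and was not called (limma adjusted p = 0.0525). The called chromosome 12 entries LOC100047788, ENSMUST00000103418 and ENSMUST00000103416 were in no gene list. Of 14 erythroid, 12 T and NK and 8 dendritic cell genes limma also called 0. At an unadjusted p under 0.05, 3 erythroid genes were higher and 1 lower, 2 T and NK genes were higher, and 1 dendritic cell gene was higher and 2 lower.

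**Figure D3:**
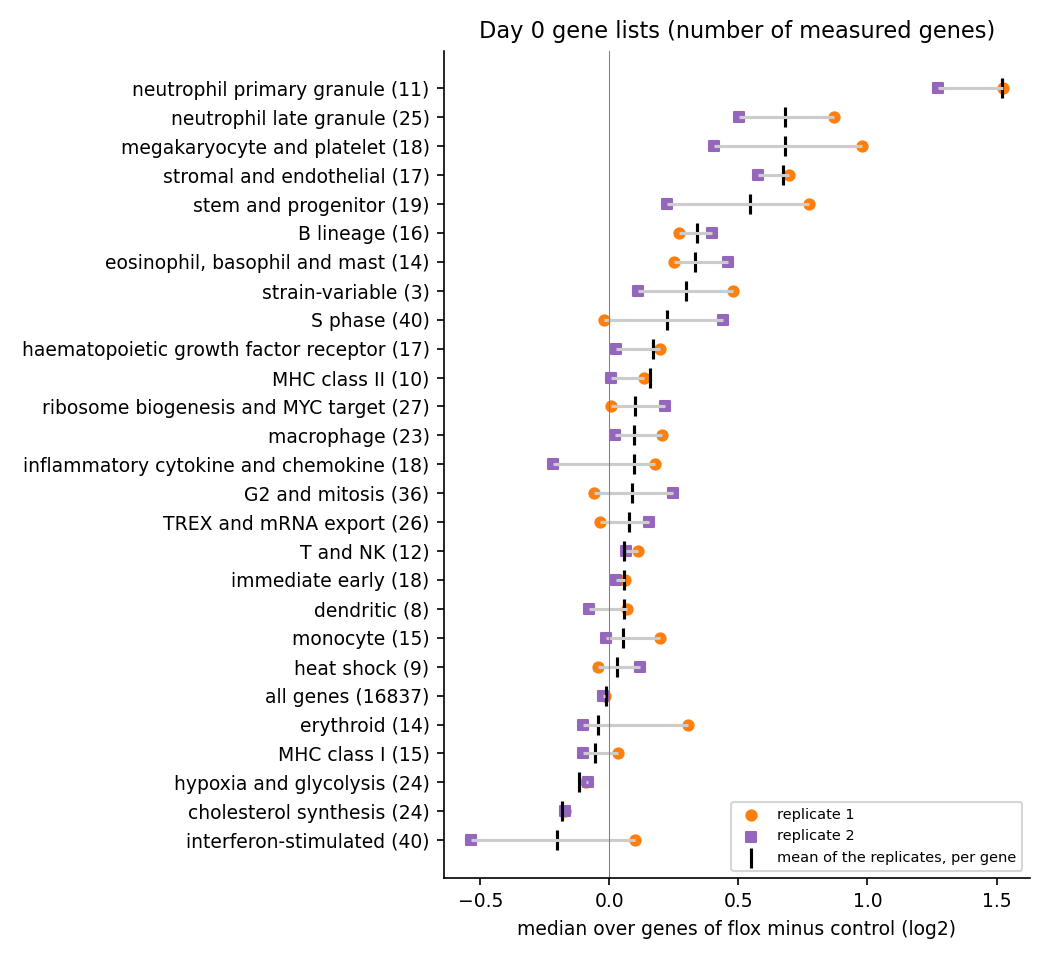
Median flox minus control difference (log2) of each gene list at day 0, with replicate 1 as circles, replicate 2 as squares and the fitted difference as a bar. The primary granule list stands at 1.52, followed by 3 lists near 0.68, and the interferon-stimulated list has a median below 0 in replicate 2 only.

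Interferon-stimulated genes are switched on by cells in response to type I interferon. Of 40 measured, 1 was called higher and 1 lower, where 0.356% and 0.137% of all genes were. The higher one was Ifi44, described above. The lower one, by the probe that represents it, was Xaf1, which promotes apoptosis. Its 2 probes disagreed, so no direction is given for Xaf1 as a gene. The median of the list was 0.10 in replicate 1 and -0.54 in replicate 2. Both replicates were negative for 14 of its genes and positive for 1, against 28.8% and 21.0% of all genes. At an unadjusted p under 0.05, 7 were lower, against 3.12% of all genes, and 1 was higher, against 4.89%. Rsad2, the antiviral protein viperin, differed by -0.50 and -1.38, and the chemokine gene Cxcl10 by -0.55 and -0.71, and neither was called (limma adjusted p = 0.193 and 0.157). Of 18 inflammatory cytokine and chemokine genes 1 was called, against 0.493% of all genes. The called gene was Ccl6, a CC chemokine of myeloid cells. It fell from 15.44 and 15.73 to 14.02 and 14.58 (-1.28 ± 0.14, limma adjusted p = 0.0295). Its neighbour Ccl3 differed by -0.91 and -2.25 and was not called (limma adjusted p = 0.127). Ccl7 differed by 0.44 and 0.55 and Ccl2, which attracts monocytes, by 0.28 and 0.60, and neither was called. At an unadjusted p under 0.05, 3 genes of the list were higher and 3 lower.

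Cell cycle genes were not called either. Of 40 S phase genes 0 passed the adjusted threshold and 3 an unadjusted p under 0.05, with a median of -0.02 in replicate 1 and 0.44 in replicate 2. Of 36 genes of G2 and mitosis 0 passed, and 1 at an unadjusted p under 0.05. Cholesterol synthesis genes had a median of -0.18 with 0 of 24 called and 1 at an unadjusted p under 0.05. Among the growth factor receptors of blood cells 0 of 17 were called and 5 passed an unadjusted p under 0.05, against 8.01% of all genes. The lists of MHC class I and II, immediate early, heat shock, hypoxia and glycolysis, and ribosome biogenesis genes held 0 called genes, and 0, 0, 0, 1, 1 and 0 genes at an unadjusted p under 0.05, with medians between -0.12 and 0.16. Of the 4 genes listed for known differences between mouse strains, Nnt, a mitochondrial transhydrogenase, differed by 0.58, Gbp2b by 0.30 and Casp4 by -0.06, with 0 called and 1 at an unadjusted p under 0.05, and Ifi202b was not well above background.

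The called genes lay unevenly over the genome. Chromosome 11, which carries Thoc5, held 24 called genes of 1348 tested (1.78%), against 59 of 15489 elsewhere (0.381%). It thus held 28.9% of the called genes, and 12 of its called genes were higher and 12 lower. This share was 50% (9 of 18 called genes) without the replicate term, 16% (108 of 677) with the shared RNA as a random block, 19.6% (74 of 378) with median scaling and 19.8% (46 of 232) on the arrays with tamoxifen. Of the other chromosomes, 9, 17 and 7 had the next highest shares, at 0.816%, 0.804% and 0.673%. The called genes of chromosome 11 lay 1.04 to 116 Mb from the Thoc5 probe, with a median of 68.9 Mb. Among them Fn3krp, Cuedc1 and LOC100047086 passed the filter on dim spots through the flox arrays alone. Camk2b and Tnfsf13os passed it through the control arrays alone. The share on chromosome 11 was 22.3% to 35.7% when single arrays were left out, and the number of its called genes 15 to 63. The lowest of these came without the array of flox replicate 1 carrying untreated day 3 RNA, and the highest without the other array of that sample. Without flox replicate 1, in the fit of all 12 RNA samples, chromosome 11 held 19 of 60 called genes (31.7%).

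Within 5 Mb of the Thoc5 probe 85 genes were tested, with a median difference of 0.02. Of these 1 was called, where 0.493% of all genes were, and 15 passed an unadjusted p under 0.05, against 8.01% of all genes. The called gene was Camk2b, which encodes a subunit of a calcium- and calmodulin-dependent kinase. Camk2b read 8.15 and 8.03 in controls and was not well above background in flox cells, at 6.30 and 6.48. It was at least 2.59-fold lower in flox cells (limma adjusted p = 0.0128). Its probe passed the filter on dim spots through the control arrays alone, so its call is a description. Between 10 and 40 Mb from Thoc5, 0 of 122 genes were called and between 50 and 80 Mb 13 of 457, where 1.78% of all chromosome 11 genes were called. From 40 to 50 Mb 2 of 110 were called and from 80 to 90 Mb 3 of 86. These ranges were not planned beforehand, and at either 0.493% or 1.78% few calls would be looked for among 122 genes.

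**Figure D4:**
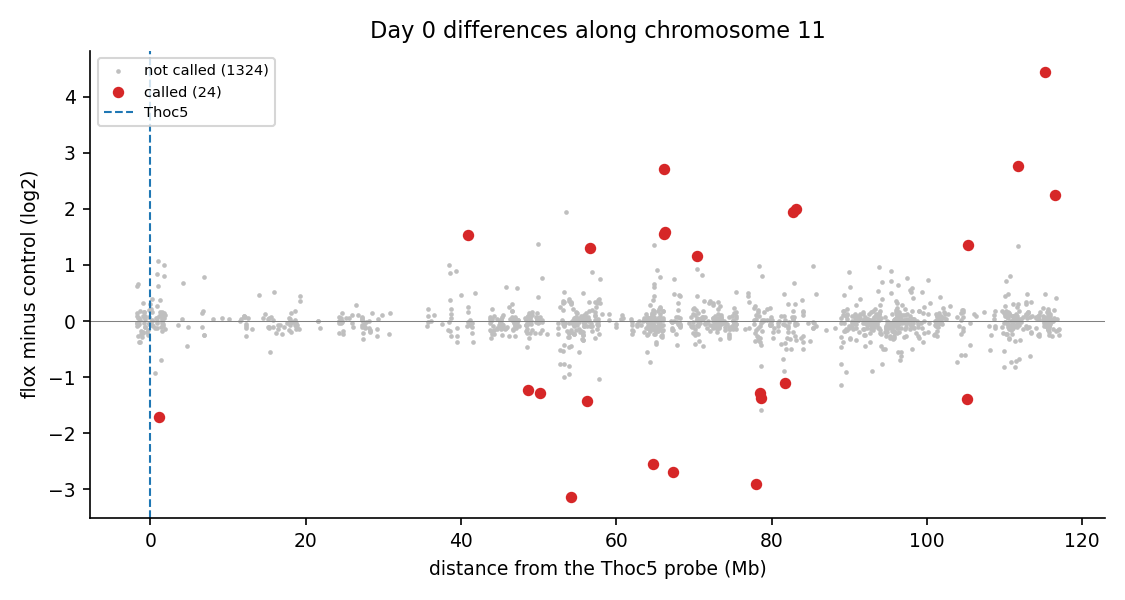
Flox minus control difference at day 0 (log2) of each gene of chromosome 11 against its distance from the Thoc5 probe in Mb. The 24 called genes (red) are spread from 1.04 to 116 Mb, with 12 above and 12 below 0.

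Called genes often lay near other called genes, a pattern examined after the values were seen. Of 82 called genes with a position, 60 (73.2%) had another called gene within 5 Mb, against 28.7% of all positioned genes. Away from chromosome 11 the shares were 65.5% of 58 called genes and 24.8% of all genes. Some neighbours may be entries of the same gene, which can raise the shares, and these were not removed. On chromosome 2 the probe of ENSMUST00000117486 lies within the span of the Fcnb probe. On chromosome 12 the probes of LOC100047788 and ENSMUST00000103416 lie side by side. Nlrp1b, its relative Nlrp1c-ps and Xaf1 lay between 70966612 and 72122228 of chromosome 11, the former pair higher and Xaf1 lower in flox cells by their brightest probes. Slfn8, Ccl6 and Wfdc18, between 82815804 and 83524810 of that chromosome, were lower together. Ifi44 and Ifi44l on chromosome 3 were higher together.

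For 12 called genes a further probe passed the filter, and for 3 of them, Nlrp1b, Ramp1 and Xaf1, it pointed the other way. The Xaf1 probe that represents the gene, at 72122169 to 72122228, read 12.29 and 12.98 in controls and 9.58 and 10.32 in flox cells, a difference of -2.69. The other Xaf1 probe, at 72127175 to 72127234, read 8.19 and 8.76 in controls and 14.01 and 14.05 in flox cells, a difference of 5.56. Neither probe's groups overlapped, so these data give no direction for Xaf1 as a gene. The mean of the kept Xaf1 probes differed by 1.43. The further Nlrp1b probe, at 71030377 to 71030436, was well above background on all control arrays and on 0 flox arrays and differed by -1.11, while the representing probe rose by 2.71. For Ramp1, a receptor activity modifying protein, the probes differed by 1.04 and -0.04. The other 9 of the 12 genes had further probes of the same sign.

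Some genes were well above background in all arrays of 1 genotype and in 0 arrays of the other. Of 16837 genes tested there were 56 such genes for flox cells and 9 for controls. Their probes passed the filter on dim spots only through the genotype in which they were bright, so the calls of 7 of the 60 higher genes and of Camk2b are a description. The called genes Zfp30, ENSMUST00000103416, Prok2, Cpt1c and Adgrf5 were well above background on all flox arrays and on only some control arrays. For 6720422M22Rik, 9130008F23Rik and Tnfsf13os it was all control arrays and only some flox arrays. Their probes too passed through 1 genotype alone, and their calls are also a description. Besides Ifi44l, Clec4f and Fn3krp, the largest bounds were those of Cuedc1, at least 3.22-fold higher, and Olfr224, an olfactory receptor gene, at least 3.36-fold higher but not called. In the other direction, H2bu2, a histone gene, was at least 1.57-fold, Echdc3 at least 1.55-fold, LOC100048406 at least 1.52-fold and Cep112 at least 1.44-fold lower in flox cells, and these 4 were not called.

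The same genes were then read in the day 3 cells that had received no tamoxifen, which are other RNA samples of the same 2 experiments, hybridised to 4 of the same arrays. There limma called 613 of 16816 genes (3.65%) between the genotypes, 384 (2.28%) higher and 229 (1.36%) lower in flox cells. Without the replicate term it called 172. Of the 83 day 0 genes, 71 were well above background at day 3 on both arrays of at least 1 genotype. In all, 82 of the 83 kept their sign at day 3, dim ones included, and 47 were called in the same direction, 29 higher and 18 lower, and 0 in the opposite direction. These 47 are 56.6% of the day 0 calls and 7.67% of the day 3 calls. Whether a gene's difference changed between the days was tested on the ratios within arrays. Limma called 0 of 16813 genes there and 2292 (13.6%) passed an unadjusted p under 0.05.

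Of the 23 called genes of chromosome 11 other than Mpo, 21 (91.3%) were called at day 3 in the same direction, and their median absolute difference was 1.56 at day 0 and 1.71 at day 3. Slfn8 differed by -2.90 at day 0 and -3.66 at day 3, 2610507I01Rik by -3.13 at each, and ENSMUST00000070897 by 4.44 and 4.26. Of the 10 called neutrophil list genes 5 were called at day 3, and the median went from 1.63 to 0.82. Mpo and Prtn3 remained 1.70 and 1.72 higher at day 3, while Ms4a3 stood at 0.75 and was not called. Stfa1 was not well above background on the control arrays at day 3. Of the 50 other called genes 21 were called at day 3, with medians of 1.31 and 0.78. The contrast between these groups of genes was not tested, and their membership was set by the day 0 calls.

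**Figure D5:**
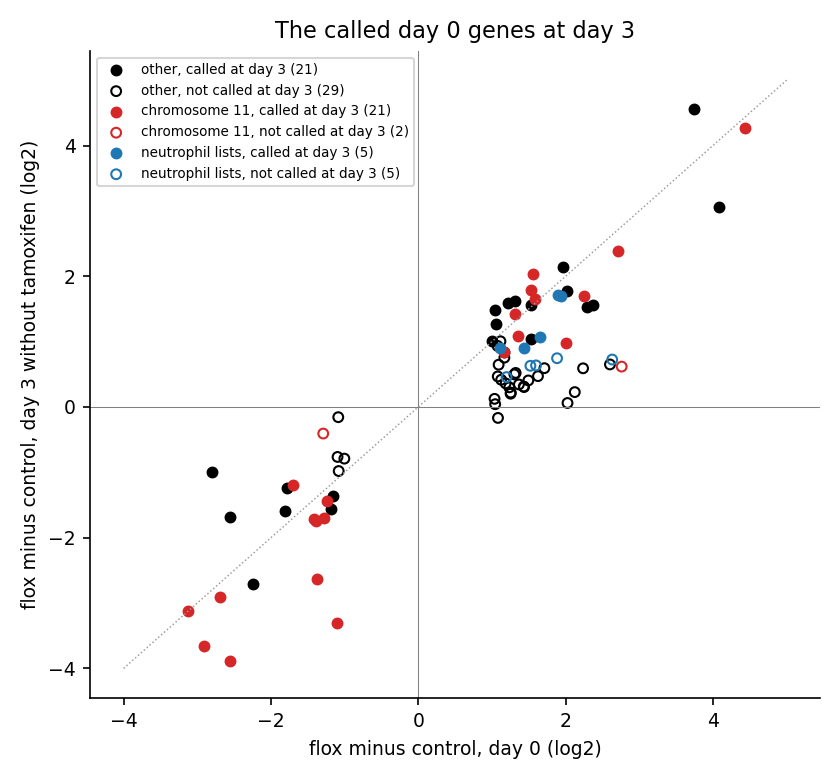
Flox minus control difference (log2) of the 83 called day 0 genes at day 0 on the horizontal and at day 3 without tamoxifen on the vertical axis, with the dotted line at equal values. Filled points were called at day 3: 21 of 23 chromosome 11 genes (red), 5 of 10 neutrophil list genes (blue) and 21 of 50 others (black).

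The list medians of day 0 and day 3 are given side by side, without a test. The median of the megakaryocyte list was 0.68 at day 0 and -0.09 at day 3, and that of the stem and progenitor list 0.54 and 0.01. The stromal list had medians of 0.67 and 0.61, and 7 of its 17 genes were called higher at day 3, against 2.28% of all genes. The S phase median was 0.22 at day 0 and 0.83 at day 3, where 20 of 40 genes were called higher, beside the same 2.28%. Elane, not called at day 0, was lower by 1.74 at day 3 (limma adjusted p = 0.0198). Thoc5 itself differed by -0.58 at day 3 without tamoxifen and was not called (limma adjusted p = 0.109).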

How the data were processed

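Cytoplasmic RNA was hybridised to 8 dual-colour arrays. Scanning output came from Agilent Feature Extraction (version 10.7.3.1), according to the submitters' processing notes. The deposited scanner files hold the mean intensity and local background median of each spot in both channels, processed intensity, and the log10 ratio of red over green, with 0 or 1 flags for spots above background, saturated or outlying, per the file headers. A further deposited table gives log10 ratios turned to day 3 over day 0, and these served to check the dye directions.

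Here the day 0 mean intensity was corrected against the local background with normexp (offset 50), quantile normalised over the 8 day 0 channels and taken to log2 (limma 3.58.1, R 4.3.3). Control and outlier spots were left out and spots of a probe averaged. A probe was kept if well above background in the day 0 channel of all 4 arrays of a genotype (20971 of 39429 probes), and a gene is its brightest kept probe. 5 genes with a missing sample were left out. Positions are mm9, from the array design, and symbols were updated through a RefSeq table. The limma model held genotype and replicate (5.02 prior degrees of freedom), with Benjamini-Hochberg adjustment over all genes. The replicate number marks the experiment, the dye and the slide, and replicate 1 minus replicate 2 correlated at 0.459 across genes between the genotypes. The code was run on simulated data with independent normal noise, drawn with variances from the fitted model. Such data do not hold the sex-linked and slide-position differences of these samples, so that run does not cover them.

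The lists and the day 0 comparison were chosen with earlier results of these data known. Named were Thoc5, the 12 called genes per direction with the largest smaller-of-replicates difference, the 4 smallest p per list where described, called genes within 5 Mb of Thoc5, and the 5 largest bounds per direction. The other primary granule and TREX genes, probes that disagreed, neighbouring called genes and markers at background were named after their values were seen. Gene lists numbered 27 and got no test. The small number of arrays limits the precision. Alternatives are given at the end.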

Additional observations from a re-analysis of the deposited data

How the results depend on the processing

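The 83 calls at day 0 compare with 80 under cyclic loess, 65 with Aquantile, 94 on Agilent's processed signal, 120 without background subtraction, 97 with a strict filter or with an intensity trend, 92 from the arrays without tamoxifen and 83 with a fold threshold. The count was 18 with no replicate block, 378 with median scaling, 2 with no filter on dim probes, 127 with the mean of all probes, 232 from the arrays with tamoxifen, 677 with the shared RNA as a random block (correlation 0.677) and 204 in the fit of all 12 RNA samples. Leaving out a sample in that fit, where the lone sample is assumed to vary like the other groups, gave 60 to 160 (134 without flox replicate 2), and leaving out an array gave 42 to 283. The cause of these shifts was not tested. At day 3 the count was 172 with no replicate block and 771 with the strict filter. The change between days stayed at 0 calls with no replicate block (1776 at an unadjusted p under 0.05) and with the strict filter (2067).

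Of the 24 top genes named by size, ENSMUST00000070897 passed under each of its 26 alternatives and Ifi44l under each of its 25. The strict filter, which needs all arrays of both genotypes well above background, drops Ifi44l. The alternatives therefore do not address its passing the filter through the flox arrays alone. Xaf1 reversed, to 1.43, with the mean of all probes, whose 2 probes disagree. Nlrp1b lost its call in 2 of 26 alternatives, with the mean of all probes (0.80) and with no filter on dim probes (2.71, limma adjusted p = 0.091). Abca9 lost its call in 7 of 26, Sik1 in 5 of 26, Camk2b in 4 of 25 and Wfdc18 in 4 of 26 alternatives. The median of the primary granule list ran from 1.20 to 1.62, and that of the interferon-stimulated list from -0.57 to 0.13. Thoc5 was not called under any alternative. Each replicate alone gave no test and so no count.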
